A study of Mus musculus with 8 samples.

Results

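The translation initiation and elongation factors were followed in mouse muscle after 5 days of hind limb unloading. The members were all probe sets whose gene symbol starts with Eif, or with Eef and a digit, apart from the eIF4E-binding proteins and the eEF2 kinase, and 65 of the 21212 probe sets on the arrays met this rule. They are 61 genes and 4 pseudogenes. The 8 samples were gastrocnemius and plantaris muscles of female wild type C57BL/6J mice, 7 weeks old and housed singly. The mice had been assigned at random to unloading (HU, 4 samples) or to normal weight bearing (WB, 4 samples). All mice had the same genotype, and the groups differed in whether the hind limbs were lifted off the cage floor. Each independent sample of total RNA, with an RNA integrity number of at least 8, was measured on its own Affymetrix Mouse Gene 1.0 ST array. The samples are titled biological replicates, and the number of mice behind each is not stated. All values are log2 expression levels.

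Initiation places a ribosome at the start codon of an mRNA. eIF2 carries the initiator tRNA to the small ribosomal subunit and eIF2B recharges eIF2 with GTP, while the eIF2 kinases phosphorylate eIF2 and thereby slow its recharging. The eIF3 complex binds the small subunit, the eIF4 factors bind the cap and unwind the mRNA, and eIF1, eIF1A, eIF5 and eIF5B take part in selecting the start codon and joining the large subunit. In elongation eEF1A delivers charged tRNAs, the eEF1B subunits exchange its nucleotide, and eEF2 moves the ribosome along by 1 codon. Skeletal muscle is known for using Eef1a2 as its adult form of eEF1A.

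Many mRNAs of the translation machinery are known to begin with a stretch of pyrimidines next to the cap. The start sites of some of the factors named below were therefore read from RefSeq (GRCm38.p6). Windows of 30 bases, from 5 before the annotated start to 25 from it on, are given 5′ to 3′ on the strand of the gene, with capitals for each uninterrupted run of C and T letters at least 7 long. The windows shown hold such runs more often than those of all members, whose share is given below them. Windows of Eif2b1, Eif2ak2, Eif4g3 and Eif4e, all called below, hold no such run and are not shown. With a call meaning an adjusted p under 0.05 between both groups, Eif3c, Eif3l, Eif4b, Eif2b5 and Eef2 are called higher below, Eef1a2 is called lower, and Eif3f, Eif3k and Eef1a1 are not called.
Eif3c, chr7:126566342-126566371, minus strand: cagagggactcggcagcttagctggttcgt
Eif3l, chr15:79075218-79075247, plus strand: CTTCTTCCgCTCTCTCCCacgggcttctgg
Eif3f, chr7:108934410-108934439, plus strand: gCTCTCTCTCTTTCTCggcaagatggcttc
Eif3k, chr7:28981864-28981893, minus strand: gcgctggtgctgaaagcgCCTTTCCCTTTg
Eif4b, chr15:102073768-102073797, plus strand: tcggacgccgcgccaCCCCCTCgcgctgct
Eif2b5, chr16:20498812-20498841, plus strand: TCTCTCCCTgcaactacaccttcgcgtttt
Eef2, chr10:81176626-81176655, plus strand: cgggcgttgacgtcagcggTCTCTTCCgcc
Eef1a1, chr9:78481700-78481729, minus strand: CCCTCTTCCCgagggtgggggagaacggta
Eef1a2, chr2:181156991-181157020, minus strand: tctgcgttctcgctcactggTTCTCTCCCT

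At any place in the window, a run of this kind lay in 15 of the 61 promoters annotated for 48 of the members (24.6%). Over all promoters it lay in 5364 of 32851 (16.3%). The distance of a run from the start was not considered, so these are not counts of stretches next to the cap. Among the members a run lay in 6 of 21 promoters of factors called higher, in 1 of 5 of those called lower and in 8 of 35 of those not called. Of 9 eIF3 promoters 3 held a run (33.3%), those of Eif3l, Eif3f and Eif3k, and Eif3c was among those without. The study named 8 of the measured members as having a binding peak of Bcl-3, a nuclear partner of NF-kappaB, in their promoter, and the window held a pyrimidine run in 5 of them. The NF-kappaB consensus, searched on both strands of the promoters of 300 bases, matched 2 of 61 member promoters (3.28%, Eef1a1 and Eif2ak4) and 8.46% of all promoters, with 0 matches in the 8 named for a peak. The study counted peaks over a promoter region of several kilobases, which these 300 bases cover only in part. The 0 matches therefore say nothing about sites elsewhere in that region. All these matches describe letters in the windows only.

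The arrays were alike in level, with medians of 6.28 to 6.33, and correlated at 0.996 to 0.997 within groups and 0.992 to 0.994 between them. All 7 markers of skeletal muscle fibres had mean levels of 12.05 to 13.18, so the defining markers of the labelled tissue were present. Markers of some other cells moved with unloading. For scale, 11.0% of all probe sets were called lower and 12.8% higher. Of the probe sets above the median level 18.4% were called lower and 16.5% higher. Of 8 fibroblast markers 6 were called lower, and their summed level on the linear scale was 7585 to 7826 on the unloaded arrays and 11648 to 13375 on the weight bearing arrays. Of 10 macrophage markers 7 were called lower (1828 to 2312 against 2444 to 2918), and of 4 slow fibre markers 3 (3123 to 4697 against 5145 to 5396). Of the muscle fibre markers themselves 3 of 7 were called lower, with a summed level of 49155 to 50271 against 52080 to 54909. No marker of these 4 lists was called higher. Of the other lists, 2 of 7 endothelial, 1 of 6 pericyte and 1 of 4 satellite cell markers were called lower, 1 satellite cell marker was called higher, and adipocyte, lymphocyte, neutrophil and erythroid markers had no call. The part of these shifts in the changes below was not tested. In RNA of whole muscle, fewer cells of a type and less RNA per cell cannot be told apart.

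Of the 65 factors 27 were higher in unloaded muscle (41.5%) and 4 were lower (6.15%), at an adjusted p under 0.05 (limma with Benjamini-Hochberg adjustment over all probe sets). Over all probe sets 12.8% were called higher and 11.0% lower, 23.8% in all. The median log2 change of the members was 0.131 and that of all probe sets 0.045. The changes were small, from -0.43 to 0.46 on the log2 scale, and the median rise of a called member was 1.20-fold, where all probe sets called higher had a median of 1.19-fold. Without the 4 pseudogenes 26 of 61 were higher and 4 lower.

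The levels of both groups did not overlap for 32 members that lay higher in unloaded muscle and for 5 that lay lower. Over all probe sets the groups did not overlap for 15.5% in the first direction and 12.0% in the second. Most members were bright on the arrays, and among the 59 in the brighter part of all probe sets (above the median level) 25 were higher (42.4%) and 3 lower (5.08%), beside 16.5% and 18.4% of all probe sets in that part. By group, 10 of 13 eIF3 subunits were called, all higher, while 1 of 7 elongation factors was higher and 1 lower and 0 of their 4 methyltransferases were called by limma. The difference between groups of factors was not tested.

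**Figure D1:**
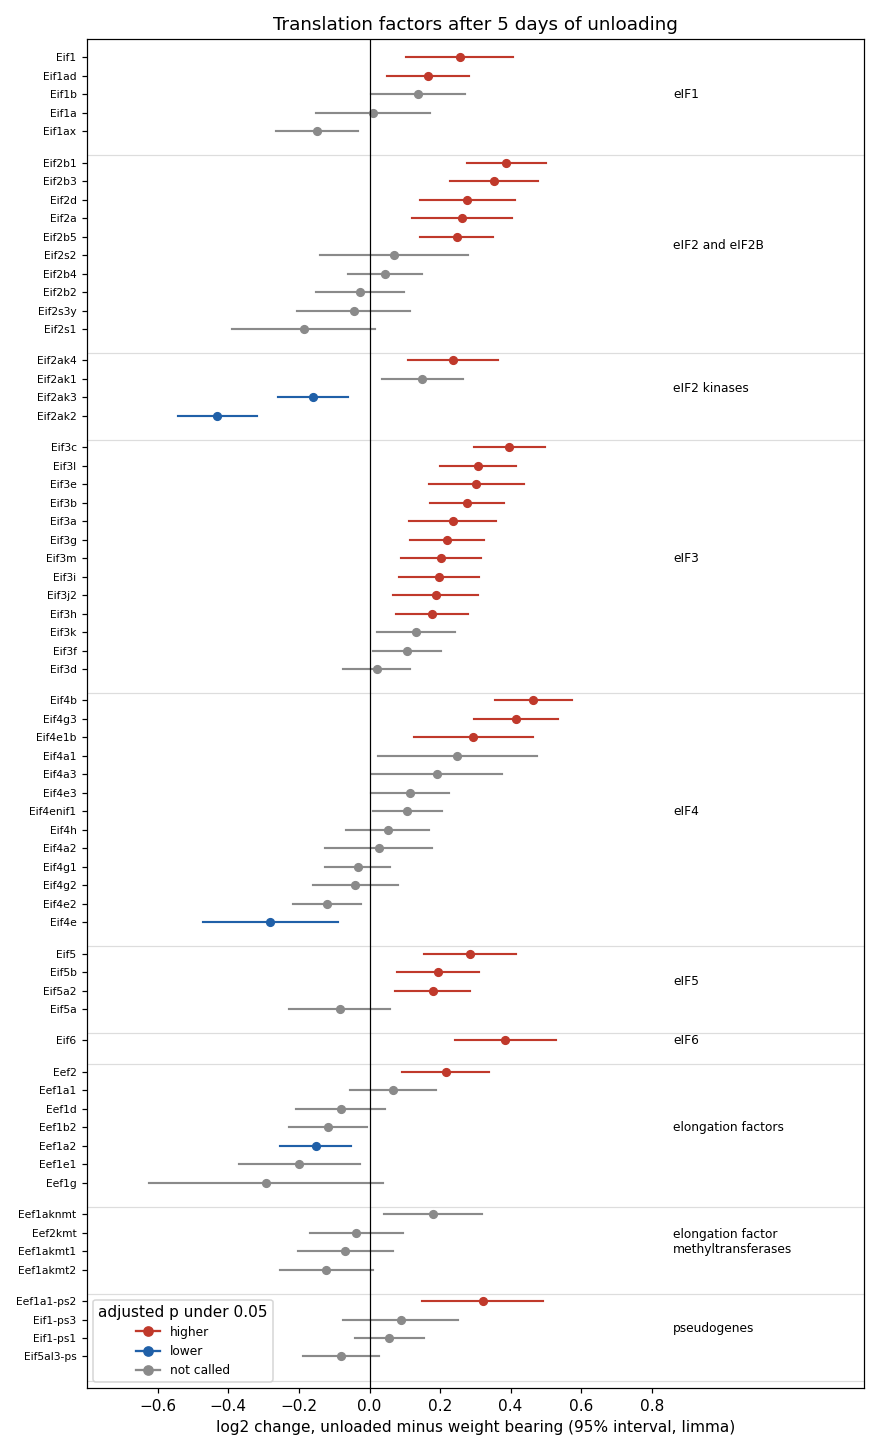
Log2 change of each of the 65 members, unloaded minus weight bearing, on the horizontal axis, with points for the change and lines for the 95% interval of limma, grouped by complex and coloured by call. All 13 eIF3 points lie above 0, and 5 of the 7 elongation factor points lie below 0.

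The eIF3 complex lay higher in unloaded muscle throughout. All 13 measured subunits had a higher mean in unloaded muscle, 10 passed the test by limma, and 10 by the methods' t-test (without Eif3j2 and with Eif3f), and the groups did not overlap for 12, with a median log2 change of 0.203 and a range of 0.02 to 0.40. Eif3c (Entrez Gene 56347), a core subunit of the complex, read 10.40, 10.36, 10.43 and 10.41 on the weight bearing arrays and 10.77, 10.75, 10.85 and 10.81 on the unloaded arrays. All 4 unloaded arrays lay well above all 4 weight bearing arrays. Eif3c rose 1.32-fold (log2 change 0.40, SE 0.045, limma adjusted p = 2.7e-04).

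Eif3l, another subunit of the same core, read 9.18, 9.06, 9.22 and 9.17 under weight bearing and 9.47, 9.44, 9.46 and 9.49 after unloading. It rose 1.24-fold (SE 0.048 on the log2 scale, adjusted p = 0.00166), and its unloaded arrays were close to each other. Eif3e read 9.68, 9.83, 9.78 and 9.85 under weight bearing and 10.20, 10.02, 10.12 and 10.00 after unloading, a rise of 1.23-fold (adjusted p = 0.00561) with a wider spread. Eif3a, the largest subunit, read 9.18, 9.24, 9.29 and 9.16 against 9.52, 9.44, 9.51 and 9.34 and rose 1.18-fold (adjusted p = 0.0125). The lowest unloaded array of Eif3a lay just above the highest weight bearing one. Eif3m read 8.57, 8.54, 8.51 and 8.42 against 8.76, 8.65, 8.74 and 8.72 and rose 1.15-fold (adjusted p = 0.0179).

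Eif3b, Eif3g and Eif3i, which form a module of their own at the mRNA entry side, were all called higher. Eif3b read 9.85, 9.91, 10.00 and 9.93 under weight bearing and 10.19, 10.21, 10.23 and 10.16 after unloading, and rose 1.21-fold (SE 0.048, adjusted p = 0.00273). Eif3g read 9.69, 9.64, 9.64 and 9.66 against 9.84, 9.96, 9.87 and 9.83 and rose 1.16-fold (adjusted p = 0.00853). Neither gene had an unloaded array within the weight bearing range. Eif3i read 9.68, 9.56, 9.59 and 9.68 against 9.77, 9.80, 9.88 and 9.85 and rose 1.15-fold (adjusted p = 0.0200), a call that was lost without unloaded replicate 3, unloaded replicate 4 or weight bearing replicate 2 (0.0561, 0.0521 and 0.0552).

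Of the remaining subunits, Eif3h, which has a role in the translation of particular mRNAs, rose 1.13-fold (adjusted p = 0.0191, but 0.0538 without unloaded replicate 2 and 0.0506 without weight bearing replicate 1). Eif3j2, a copy of the loosely bound subunit eIF3j, was 1.14-fold higher (adjusted p = 0.0312). Its probes may also measure the near-identical Eif3j1, which has no probe set of its own here, so the value is uncertain for the single gene. The Eif3j2 call was lost without any 1 array other than unloaded replicate 4 or weight bearing replicate 3 (adjusted p 0.0655 to 0.0755) and by the methods' t-test (0.0759). Eif3k and Eif3f did not pass the test by limma, with log2 changes of 0.13 and 0.11 (adjusted p = 0.0833 and 0.102), although their groups did not overlap. Eif3f passed with an intensity trend (0.0354), by the methods' t-test (0.0335) and by Storey's q-value (0.0149), and Eif3k with the trend (0.0444) and without unloaded replicate 1 (0.0408). Eif3d, the subunit that can itself bind the cap of some mRNAs, was the one subunit whose groups overlapped, with a log2 change of 0.02 (95% interval -0.074 to 0.114).

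**Figure D2:**
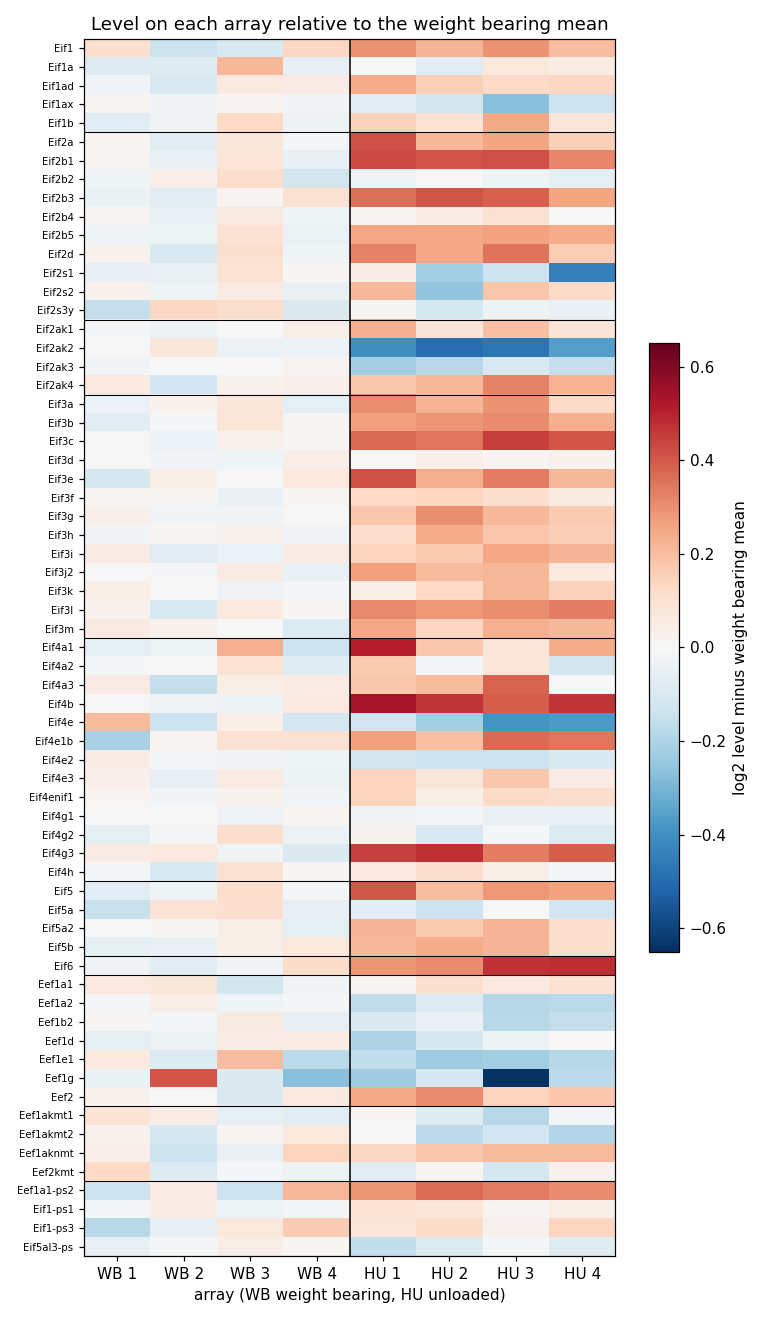
Log2 level of each member (rows, in the order of the groups, with lines between them) on each of the 8 arrays (columns) minus the weight bearing mean of that member, as colour. The eIF3 rows are red on nearly all unloaded arrays apart from Eif3d, Eif2ak2 is blue on all 4, and Eef1g varies from array to array within both groups.

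Among the eIF2 and eIF2B genes 5 of 10 were higher and 0 lower by limma, with a median log2 change of 0.158. The methods' t-test and an unadjusted p under 0.05 also gave 0 lower genes. The calls lay in eIF2B and in the eIF2 relatives, not in the measured subunits of eIF2 itself. Eif2b1 (Entrez Gene 209354), the α subunit of eIF2B, read 8.51, 8.45, 8.57 and 8.44 under weight bearing and 8.92, 8.90, 8.91 and 8.81 after unloading. It rose 1.31-fold (log2 change 0.39, SE 0.050, adjusted p = 5.4e-04), with all unloaded arrays above the weight bearing ones.

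Eif2b3, the γ subunit, read 8.73, 8.70, 8.79 and 8.87 against 9.13, 9.18, 9.16 and 9.03 and rose 1.28-fold (SE 0.056, adjusted p = 0.00175). Eif2b5, the ε subunit that carries the exchange activity, rose 1.19-fold (adjusted p = 0.00443), and its unloaded arrays read 8.73 to 8.75 where the weight bearing arrays read 8.45 to 8.58. Thus 3 of the 5 eIF2B subunits rose. The other two, Eif2b2 (β) and Eif2b4 (δ), had log2 changes of -0.03 (95% interval -0.152 to 0.097) and 0.04 (-0.062 to 0.150), and their groups overlapped.

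Eif2d, which can bring tRNA to the ribosome without eIF2, read 8.87, 8.75, 8.95 and 8.82 under weight bearing and 9.17, 9.10, 9.20 and 9.01 after unloading, a rise of 1.21-fold (adjusted p = 0.00906). Eif2a, a separate factor from the α subunit of eIF2, read 9.10, 9.01, 9.16 and 9.07 against 9.50, 9.30, 9.34 and 9.24 and rose 1.20-fold (adjusted p = 0.0151 by limma, 0.0671 by the methods' t-test). Both genes had every unloaded array above every weight bearing array. The subunits of eIF2 that were measured spread more. Eif2s1, the α subunit that the eIF2 kinases phosphorylate, averaged 8.91 ± 0.062 (SD, n = 4) under weight bearing and read 8.96, 8.69, 8.78 and 8.47 after unloading (adjusted p = 0.162, and 0.0358 without unloaded replicate 1). Eif2s2, the β subunit, read 9.53 to 9.63 against 9.79, 9.32, 9.76 and 9.70 (adjusted p = 0.620, and 0.0467 without unloaded replicate 2). The Y-linked γ subunit gene Eif2s3y read 2.38 to 2.67 on all arrays of these female mice, near the lowest value in the table (1.96), and its X-linked partner was not analysed here.

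The 4 eIF2 kinases went in both directions. Eif2ak2 (PKR, Entrez Gene 19106), which is activated by double-stranded RNA, read 5.57, 5.64, 5.53 and 5.53 under weight bearing and 5.17, 5.07, 5.10 and 5.21 after unloading. All 4 unloaded arrays lay below all weight bearing arrays, and the gene fell by 0.43 on the log2 scale (1.35-fold lower, SE 0.051, adjusted p = 3.0e-04), the largest among the members. Eif2ak4 (GCN2), which senses uncharged tRNA, read 6.69, 6.50, 6.65 and 6.66 against 6.80, 6.84, 6.95 and 6.85 and rose 1.18-fold (SE 0.057, adjusted p = 0.0147). The summed levels of fibroblast, macrophage, slow fibre and muscle fibre markers given above shifted in the direction of Eif2ak2. The part of any of these shifts in the fall of Eif2ak2 was not tested.

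Eif2ak3 (PERK), the kinase of endoplasmic reticulum stress, read 6.79, 6.81, 6.81 and 6.83 under weight bearing and 6.59, 6.63, 6.71 and 6.66 after unloading. It was 1.12-fold lower (adjusted p = 0.0263), and the weight bearing arrays were almost level. The call was lost without any 1 array other than unloaded replicate 3 or weight bearing replicate 3 (adjusted p 0.0507 to 0.0631). Eif2ak1 (HRI), the heme-regulated kinase, averaged 9.04 ± 0.033 (SD, n = 4) with a highest array of 9.08 under weight bearing, and read 9.27, 9.12, 9.23 and 9.12 after unloading, with no overlap, but did not pass the test (log2 change 0.15, adjusted p = 0.0621). It passed under 4 alternatives, with the lowest adjusted p after quantile normalization (0.0263).

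**Figure D3:**
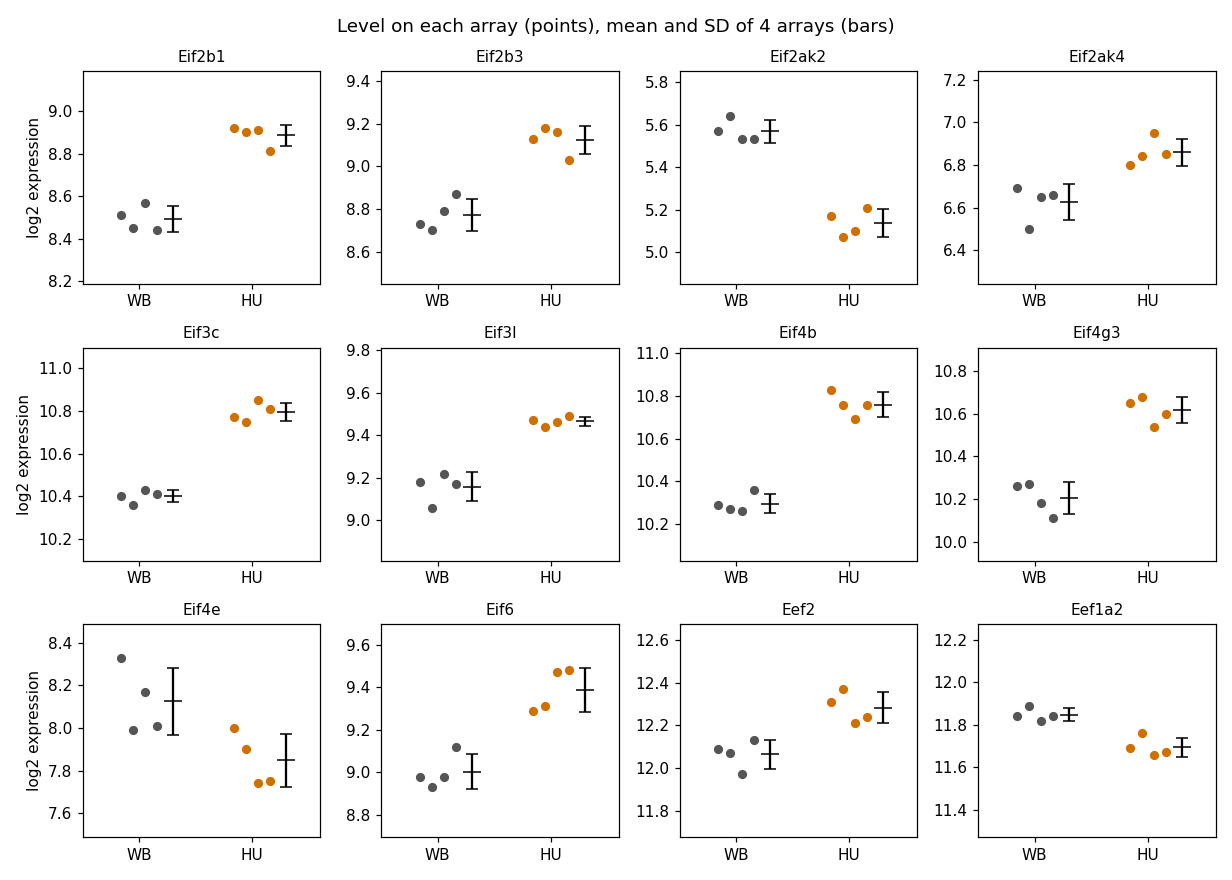
Log2 expression of 12 members on each weight bearing (WB, grey) and unloaded (HU, orange) array, with the mean and SD of 4 arrays as bars, and an axis of the same span in every panel. Eif2ak2, Eif4e and Eef1a2 lie lower in unloaded muscle and the other 9 genes lie higher, and only the Eif4e groups overlap.

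The eIF4 factors held the largest rise among the members. The mRNA of the cap-binding protein Eif4e was called lower, a call kept in 8 refits with other settings and lost in 8. Of 13 genes 3 were higher, 1 was lower and 9 were not called, with a median log2 change of 0.107. Eif4b (Entrez Gene 75705), which stimulates the eIF4A helicase, read 10.29, 10.27, 10.26 and 10.36 under weight bearing and 10.83, 10.76, 10.69 and 10.76 after unloading. Every unloaded array lay far above the weight bearing range, and Eif4b rose 1.38-fold (log2 change 0.46, SE 0.049, adjusted p = 1.7e-04). Eif4g3 (Entrez Gene 230861), an eIF4G scaffold that joins the cap-binding protein to the helicase, read 10.26, 10.27, 10.18 and 10.11 against 10.65, 10.68, 10.54 and 10.60. It rose 1.33-fold (SE 0.054, adjusted p = 5.5e-04), again without overlap.

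Eif4e (Entrez Gene 13684), the protein that binds the cap, read 8.33, 7.99, 8.17 and 8.01 under weight bearing and 8.00, 7.90, 7.74 and 7.75 after unloading. The highest unloaded array lay within the weight bearing range. Eif4e fell by 0.28 on the log2 scale (1.21-fold lower, SE 0.087, adjusted p = 0.0401 by limma and 0.121 by the methods' t-test). This call was lost without unloaded replicates 2, 3 or 4 (adjusted p = 0.0667, 0.103 and 0.0991) and without weight bearing replicates 1 or 3 (0.0918 and 0.0852). Eif4e1b, a relative of Eif4e known from oocytes, read 5.86, 6.09, 6.17 and 6.17 against 6.34, 6.27, 6.44 and 6.42. It was 1.23-fold higher (adjusted p = 0.0196), but not without unloaded replicate 3 or 4 (0.0549 and 0.0521) or by the methods' t-test (0.0945).

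The 9 eIF4 genes without a call had log2 changes of -0.12 to 0.25. The helicase genes Eif4a1 and Eif4a3 read higher on average by 0.25 and 0.19 (adjusted p = 0.10 and 0.12), and their arrays spread widely, with Eif4a1 at 7.53 to 7.90 under weight bearing and 7.75 to 8.18 after unloading. Without weight bearing replicate 3 Eif4a1 had an adjusted p of 0.0383, and without unloaded replicate 4 Eif4a3 had one of 0.0466. Eif4a2 had a log2 change of 0.03. Eif4e2, a cap-binding relative of Eif4e with a repressive role, read 9.23 to 9.31 against 9.12 to 9.16, without overlap (log2 change -0.12, adjusted p = 0.0700 by limma). It passed as lower with an intensity trend (0.0392), in the methods' t-test (0.0278), by Storey's q-value (0.0124) and without the dimmest 25% of probe sets (0.0493). Eif4e3 and Eif4enif1, which carries eIF4E into the nucleus, both had a log2 change of 0.11 without overlap (adjusted p = 0.125 and 0.105 by limma). With Storey's q-value both passed (0.0468 and 0.0303), and Eif4enif1 also after quantile normalization (0.0419). Eif4g1, the main eIF4G scaffold, read 10.76 to 10.80 against 10.74 to 10.77 (log2 change -0.03, 95% interval -0.125 to 0.059), and Eif4g2 and Eif4h had changes of -0.04 and 0.05.

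The eIF1 group had 2 of 5 genes higher and 0 lower by limma, 1 lower at an unadjusted p under 0.05 and 0 in either direction by the methods' t-test. Eif1, which guards the choice of the start codon, read 10.72, 10.48, 10.52 and 10.75 under weight bearing and 10.91, 10.84, 10.91 and 10.82 after unloading. It rose 1.19-fold (SE 0.068, adjusted p = 0.0229 by limma and 0.108 by the methods' t-test), and the spread was wider under weight bearing. Without unloaded replicate 3, weight bearing replicate 2 or weight bearing replicate 3 its adjusted p was 0.0592, 0.0576 and 0.0579. Eif1ad, named for its eIF1A-like domain, read 8.09, 8.01, 8.17 and 8.16 against 8.35, 8.26, 8.23 and 8.24. It was 1.12-fold higher (adjusted p = 0.0448), a call lost without any 1 array other than weight bearing replicate 3 (0.0534 to 0.112). Eif1ax, the X-linked gene of eIF1A, read 10.12 to 10.16 against 9.87 to 10.07 without overlap (log2 change -0.15, adjusted p = 0.0649, but 0.0430 without unloaded replicate 1, 0.0310 with an intensity trend and 0.0475 without the dimmest 25% of probe sets). Eif1b and Eif1a had log2 changes of 0.14 and 0.01 (adjusted p = 0.122 and 0.941).

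In the eIF5 group 3 of 4 genes were higher, and the single eIF6 gene rose as well. Eif5, which makes eIF2 hydrolyse its GTP at the start codon, read 10.30, 10.34, 10.47 and 10.36 under weight bearing and 10.77, 10.57, 10.65 and 10.63 after unloading, a rise of 1.22-fold (SE 0.059, adjusted p = 0.00662). Eif5b, the GTPase of subunit joining, read 8.19, 8.20, 8.29 and 8.32 against 8.46, 8.49, 8.47 and 8.36 and was 1.14-fold higher (adjusted p = 0.0231). In both genes the unloaded arrays lay above the weight bearing arrays, for Eif5b by a narrow margin. Eif5a2, a relative of the hypusine-bearing factor Eif5a, read 5.88, 5.90, 5.92 and 5.82 against 6.10, 6.05, 6.10 and 5.99 and was 1.13-fold higher (adjusted p = 0.0225). Eif5a itself had a log2 change of -0.08 (95% interval -0.227 to 0.057).

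The Eif5b call was lost without unloaded replicates 2 or 3 or weight bearing replicates 1 or 2 (adjusted p = 0.0619, 0.0579, 0.0656 and 0.0605), and that of Eif5a2 without unloaded replicate 3 or weight bearing replicates 1 or 4 (0.0604, 0.0523 and 0.0562). Eif6 (Entrez Gene 16418), which keeps the large ribosomal subunit from joining too early and acts in its assembly, read 8.98, 8.93, 8.98 and 9.12 under weight bearing and 9.29, 9.31, 9.47 and 9.48 after unloading. Every unloaded array lay above every weight bearing array, and Eif6 rose 1.31-fold (log2 change 0.39, SE 0.064, adjusted p = 0.00230).

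The 7 elongation factors had a median log2 change of -0.118, and 1 was higher, 1 lower and 5 were not called. Eef2 (Entrez Gene 13629), the translocase, read 12.09, 12.07, 11.97 and 12.13 under weight bearing and 12.31, 12.37, 12.21 and 12.24 after unloading. It rose 1.16-fold (SE 0.055, adjusted p = 0.0189, and 0.0537 without unloaded replicate 2), with all unloaded arrays above the weight bearing ones. Eef1a2 (Entrez Gene 13628), the muscle form of eEF1A, read 11.84, 11.89, 11.82 and 11.84 against 11.69, 11.76, 11.66 and 11.67. All its unloaded arrays were below the weight bearing arrays, and it was 1.11-fold lower (log2 change -0.15, SE 0.045, adjusted p = 0.0349). That call was lost without any 1 array other than unloaded replicate 2 (adjusted p 0.0506 to 0.0889) and after quantile normalization (0.113).

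Eef1a1, the eEF1A gene of most other tissues, read 11.56 to 11.75 under weight bearing and 11.69 to 11.78 after unloading (log2 change 0.07, 95% interval -0.054 to 0.187). The 3 eEF1B subunits Eef1b2, Eef1d and Eef1g and the associated Eef1e1 all had a lower mean in unloaded muscle, by -0.12, -0.08, -0.29 and -0.20 on the log2 scale, and none passed the test (adjusted p = 0.113, 0.313, 0.178 and 0.0863). At an unadjusted p under 0.05 by limma and over all groups, 36 of the 65 members were higher and 8 lower. The share of all probe sets at this unadjusted threshold was not counted, so no scale stands beside these or the other unadjusted counts. Eef1g had the widest spread of all members, with 7.43, 7.88, 7.38 and 7.20 under weight bearing and 7.24, 7.36, 6.83 and 7.30 after unloading. Without weight bearing replicate 4 Eef1e1 had an adjusted p of 0.0304, and with Storey's q-value Eef1b2 had one of 0.0485.

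The methyltransferases that modify the elongation factors had no call by limma or by the methods' t-test, and 1 was higher and 0 lower at an unadjusted p under 0.05. Eef1aknmt, which methylates eEF1A, had the smallest p of the 4, with 6.51, 6.34, 6.43 and 6.62 under weight bearing and 6.61, 6.65, 6.68 and 6.68 after unloading. Its groups overlapped on the highest weight bearing array (log2 change 0.18, adjusted p = 0.0615), and without that array, weight bearing replicate 4, its adjusted p was 0.0202 (0.0461 without the dimmest 25% of probe sets). Eef1akmt1, Eef1akmt2 and Eef2kmt had log2 changes of -0.07, -0.12 and -0.04. Of the 4 pseudogenes Eef1a1-ps2 was higher, with 8.49, 8.68, 8.49 and 8.84 against 8.91, 8.99, 8.96 and 8.93 (1.25-fold, adjusted p = 0.0140 by limma and 0.114 by the methods' t-test). Its probes may share sequence with Eef1a1, which had no call. The other three, Eif1-ps1, Eif1-ps3 and Eif5al3-ps, had log2 changes of 0.06, 0.09 and -0.08.

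Related factors were then compared on the same array, to ask whether both members of a pair changed alike. For 10 of 12 intended pairs both genes were measured, and the exact two-sided permutation test over 4 against 4 arrays cannot give a p below 0.0286, which became 0.0571 after Benjamini-Hochberg adjustment over the 10 pairs. In 5 pairs the groups did not overlap and the exact permutation p was this smallest value, so none passed after adjustment. The log2 difference of Eif4g1 minus Eif4g3 was 0.53, 0.52, 0.58 and 0.68 on the weight bearing arrays and 0.11, 0.08, 0.19 and 0.14 on the unloaded arrays, a shift of -0.45. Eif4b minus Eif4h shifted by 0.41, Eif4e minus Eif4e3 by -0.40, Eif5a minus Eif5a2 by -0.26 and Eef1a1 minus Eef1a2 by 0.22.

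In the pair of eEF1A genes the difference was -0.10, -0.14, -0.26 and -0.18 under weight bearing and 0.00, 0.02, 0.08 and 0.10 after unloading. These differences are changes of 1 probe set against another and give no ratio of the mRNAs. The other 5 pairs had exact permutation p values of 0.0571 (Eif4a1 with Eif4a2, shift 0.22), 0.1429 (Eif4e with Eif4e2, -0.16), 0.4286 (Eif1 with Eif1b, 0.12), 0.7429 (Eif4a1 with Eif4a3, 0.06) and 0.8857 (Eif4g1 with Eif4g2, 0.01).

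**Figure D4:**
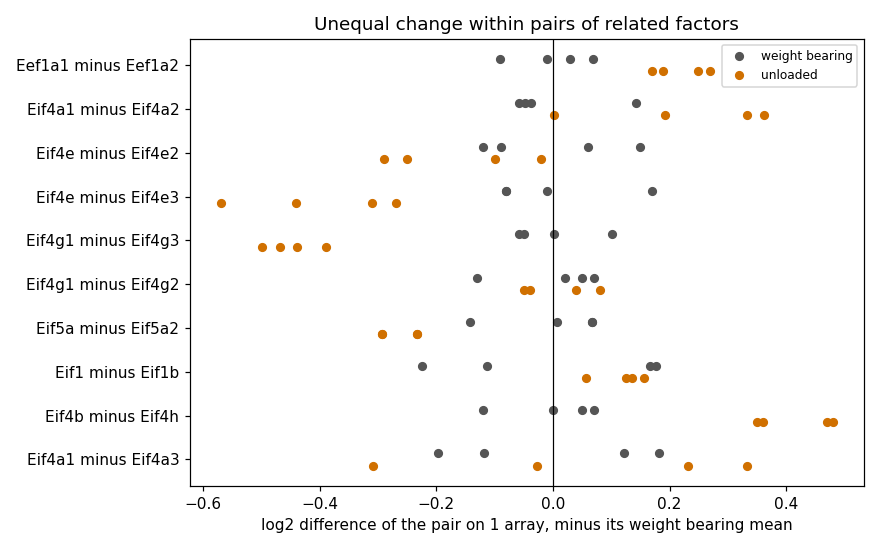
Log2 difference between both genes of each of 10 pairs on 1 array, minus the weight bearing mean of that difference, for weight bearing (grey) and unloaded (orange) arrays. The groups lie apart for Eef1a1 with Eef1a2, Eif4e with Eif4e3, Eif4g1 with Eif4g3, Eif5a with Eif5a2 and Eif4b with Eif4h, and overlap for the other 5 pairs.

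Of the 8 members that the study named as having a Bcl-3 peak in the promoter, Eef2, Eif1ad and Eif4b were higher, Eif2ak3 was lower, and Eif2b4, Eif3f, Eif3k and Eif4a1 were not called. This is 37.5% higher and 12.5% lower, beside 41.5% and 6.15% of all members. These peaks came from chromatin immunoprecipitation with sequencing, as sites with more Bcl-3 binding in unloaded than in weight bearing muscle. Expression did not enter that choice. A link between the peaks and the direction of a change was not tested, and 8 members are few.

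Among 54 other genes of translation on the arrays 14 were higher (25.9%) and 7 lower (13.0%), with a median log2 change of 0.022. Over all probe sets the shares were 12.8% and 11.0%, with a median log2 change of 0.045. The inhibitors and signalling kinases had 9 of 18 higher and 0 lower by limma, with a median of 0.134. At an unadjusted p under 0.05 the count of lower genes was 2, and by the methods' t-test 7 were higher and 0 lower. Eif4ebp1, which holds Eif4e away from the scaffold, read 10.33, 10.33, 10.09 and 10.19 under weight bearing and 11.18, 11.39, 11.27 and 11.12 after unloading (2.00-fold higher, SE 0.075, adjusted p = 2.3e-05). Eef2k, the kinase that inactivates Eef2, read 8.75, 8.61, 8.69 and 8.83 against 9.27, 9.16, 9.17 and 9.16 (1.39-fold higher, adjusted p = 3.8e-04). Both genes had every unloaded array above the weight bearing range.

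Ppp1r15a (GADD34), which directs a phosphatase to eIF2, read 6.99, 7.08, 7.00 and 6.99 against 7.95, 7.99, 7.71 and 7.31 and was 1.65-fold higher (adjusted p = 0.00302 by limma and 0.0873 by the methods' t-test). Its unloaded arrays spread much more than its weight bearing arrays. Mknk2, a kinase of Eif4e, was 1.35-fold higher (adjusted p = 9.3e-04). The remaining 5 that rose were Eif4ebp3, Gcn1, Rps6kb2, Mtor and Paip2b, with log2 changes of 0.18 to 0.38. The lowest of these, Paip2b, lost its call without unloaded replicates 1, 3 or 4 or weight bearing replicates 2, 3 or 4 (adjusted p 0.0558 to 0.0879).

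Among the 11 poly(A)-binding, scanning and recycling factors Pabpc4, a poly(A)-binding protein, read 7.66, 7.50, 7.89 and 7.52 under weight bearing and 7.01, 6.92, 6.91 and 6.83 after unloading, and was 1.66-fold lower (adjusted p = 3.0e-04). Abcf1 and Dhx29 were higher, by 0.24 and 0.17 on the log2 scale, and the Dhx29 call was lost without unloaded replicates 1 or 4 or weight bearing replicates 2 or 4 (adjusted p 0.0573 to 0.0789). Etf1, the release factor that reads stop codons, rose 1.20-fold (adjusted p = 0.00620), the one call among 5 release factors. Dhps, which begins the hypusine modification of Eif5a, rose 1.37-fold (adjusted p = 2.0e-04), the one call among 8 genes of hypusine and diphthamide synthesis. Secisbp2, of selenocysteine insertion, was 1.17-fold higher (adjusted p = 0.0199, and 0.0537 without unloaded replicate 4).

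The translation factors of mitochondria lay lower. All 10 measured ones had a lower mean in unloaded muscle, 6 passed the test by limma (2 by the methods' t-test) and 0 were higher by either test or at an unadjusted p under 0.05, with a median log2 change of -0.254. Gfm2 and Gfm1, the mitochondrial relatives of elongation factor G, were 1.30-fold and 1.25-fold lower (adjusted p = 0.00105 and 0.00210), with Gfm2 at 8.64 to 8.72 under weight bearing and 8.23 to 8.44 after unloading. Mtif2, a mitochondrial initiation factor, was 1.22-fold lower (adjusted p = 0.0144 by limma and 0.0634 by the methods' t-test). Mtif3, also an initiation factor, had no call (log2 change -0.03, limma adjusted p = 0.771), and its groups overlapped. Mtrf1l, Mrrf and Guf1 were 1.21, 1.20 and 1.18-fold lower. Leaving out any 1 array left 3 to 5 of the 6 calls, and Gfm1, Gfm2 and Mtif2 passed without each array in turn, while Mtrf1l, Mrrf and Guf1 reached adjusted p values of up to 0.0700, 0.0609 and 0.119.

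**Figure D5:**
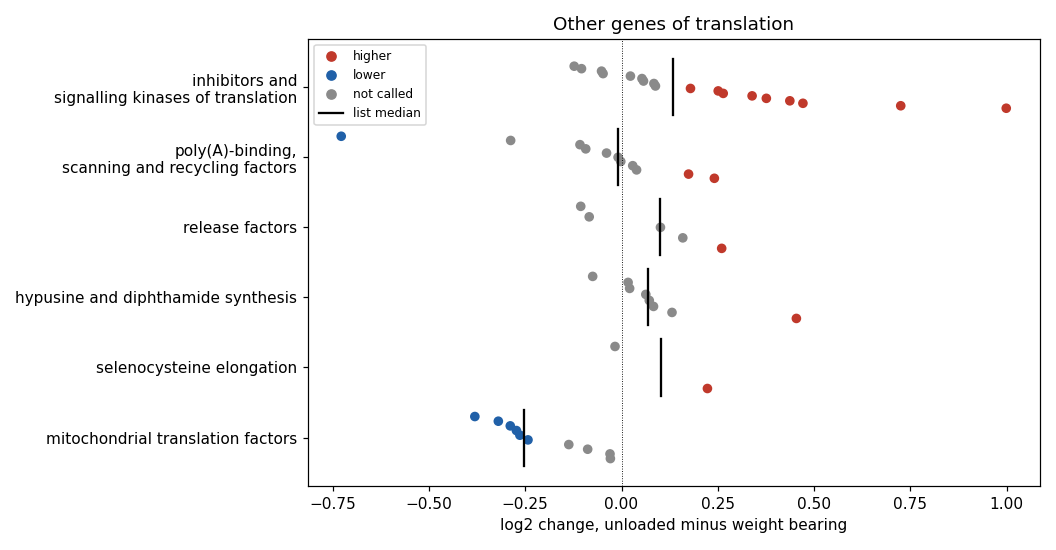
Log2 change, unloaded minus weight bearing, of 54 other genes of translation in 6 lists, with a point for each gene coloured by call and a black line for the median of each list. The points of the list of inhibitors and signalling kinases reach 1.00 with Eif4ebp1, and all 10 mitochondrial factors lie below 0.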

How the data were processed

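Each of 8 independent RNA samples was hybridised by the authors to its own array. The authors applied robust multi-array analysis (RMA) with Brainarray custom probe set definitions, 1 probe set per Entrez gene, and deposited log2 values. The sources used here do not name their release or genome build. Coordinates in the text are those of RefSeq start sites (GRCm38.p6).

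The deposited log2 values were used without rescaling or filter, and 0 columns were left unused. Entrez IDs gave current symbols for 20656 of 21212 probe sets, 53 kept the platform's symbol and 503 had none. By the platform's symbols alone 57 members were found. The groups were compared by a two-sided test in limma 3.58.1 (R 4.3.3, lmFit followed by eBayes). P values were adjusted by Benjamini-Hochberg over all probe sets, and a call means an adjusted p under 0.05. Log2 changes are unloaded minus weight bearing, SE is their standard error, and a fold is 2 to the power of the difference. Summed marker levels add 2 to the power of each value. Paralogs were compared with an exact permutation test. Python 3.11.15, pandas 2.3.3, numpy 2.4.6 and scipy 1.17.1 were used, and the fit was tested on simulated data.

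Values on every array are given for the called members with the largest change, up to 4 a group and 8 for eIF3 and eIF4, or for the member with the smallest p in a group without a call. Of the other genes up to 4 called ones per list are named, and Eif4ebp1 and Eef2k always. Further names and values beyond this rule were chosen after their values were seen. The members and lists were chosen with earlier results of these data known.

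Alternatives were the methods' t-test (unequal variances, Benjamini-Hochberg) and the same with Storey's q-value (lambda 0.5), an intensity trend with robust variance, array weights, the replicate number as a block, quantile normalization, centring of each array on a median of 0, leaving out each array or the dimmest 25% of probe sets, an adjusted p under 0.01 and the platform's symbols. The set without pseudogenes was added after the data were seen. With 4 arrays per group the median 95% half-width of a member's log2 change was 0.120, so the number of arrays limits the precision.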

Additional observations from a re-analysis of the deposited data

Results flagged for a closer look

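In 6 of 130 groups of 4 arrays 1 array stood apart, by the gap to its nearest neighbour as a share of the group's range (above Dixon's 95% critical value). Chance alone gives about 1 such group in 20. In 4 of the 6 groups this was weight bearing replicate 3. That array was the highest for Eif1a (7.11, next 6.84, share 0.884) and for Eif2b5 (8.58, next 8.46, share 0.910), and the lowest for Eif3f (10.95, next 11.00, share 0.884) and Eif4g1 (10.76, next 10.79, share 0.855). Weight bearing replicate 2 was the lowest for Eif4a3 (6.57, next 6.77, share 0.954). Unloaded replicate 4 was the lowest for Eif2b1 (8.81, next 8.90, share 0.843). Eif2b1 and Eif2b5 were called higher without each of the 8 arrays in turn.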

How the results depend on the processing

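Of the 31 called members 17 passed in all 16 refits (16 higher, and Eif2ak2 lower), 14 lost the call in at least 1, and none changed sign. The 27 higher and 4 lower members became 13 and 1 at an adjusted p under 0.01, and the lower ones became 2 after quantile normalization and 2 with the replicate block. Same-numbered arrays deviated together with correlations of 0.024 to 0.120, and differently numbered arrays with correlations of -0.138 to 0.102. Whether the replicate numbers pair the arrays cannot be told from these values. As a block the replicate numbers left 25 higher members, 1 higher eIF1 gene, 1 lower eIF2 kinase and 0 lower elongation factors. By group, at an adjusted p under 0.01 the counts were 0 (eIF1 higher), 0 and 1 (eIF2 kinases higher and lower), 5 (eIF3 higher), 0 (eIF4 lower), 1 (eIF5 higher), 0 and 0 (elongation factors), 0 (pseudogenes), 3 (other genes lower) and 2 (mitochondrial factors lower). The methods' t-test gave 0 higher eIF1 genes, 0 pseudogenes, 3 lower other genes and 2 lower mitochondrial factors. With Storey's q-value 2 eIF2 kinases and 5 eIF4 genes were higher, with 0 pseudogenes. In that setting 2 elongation factors and 2 genes from the list of inhibitors and signalling kinases were lower. With an intensity trend 2 eIF2 kinases were higher, and 1 eIF1 gene, 2 eIF4 genes and 1 gene from the list of inhibitors and signalling kinases lower. Without the dimmest 25% of probe sets 2 eIF2 kinases and 1 methyltransferase were higher, and 1 eIF1 gene and 2 eIF4 genes lower. Quantile normalization gave 2 higher eIF2 kinases, 0 lower eIF4 genes and 0 lower elongation factors, array medians set to 0 gave 1 higher eIF1 gene, and the platform's symbols gave 1 higher eIF1 gene and 0 pseudogenes. Leaving out each array in turn gave 20 to 27 higher and 1 to 4 lower members (20 higher without unloaded replicate 3, and 1 lower without unloaded replicate 4 or weight bearing replicate 1). The ranges were 0 to 1 for eIF1 higher and lower, 0 to 1 for eIF2 and eIF2B lower, 1 to 2 for eIF2 kinases lower, 0 to 1 for eIF4 lower, 1 to 3 for eIF5 higher, 0 to 1 for elongation factors higher and lower, 0 to 1 for methyltransferases higher, 4 to 7 for other genes lower and 3 to 5 for mitochondrial factors lower. In 12 cases a change near 0 turned its sign. Over the arrays left out in turn, the log2 change was -0.020 to 0.082 for Eif1a (-0.010, -0.018, -0.003 and -0.009 without unloaded replicate 3, weight bearing replicate 1, unloaded replicate 4 and weight bearing replicate 4), -0.021 to 0.077 for Eif4a2 (-0.001 without weight bearing replicate 4), -0.068 to 0.011 for Eif2b2, -0.097 to 0.001 for Eif2s3y and -0.067 to 0.006 for Eef2kmt. After quantile normalization Eif1-ps1 came to -0.014 and the shift of Eif4g1 against Eif4g2 to -0.013. The cause of these differences was not tested. For pairs, 7 arrays or the sign-flip test of the pairing (smallest p 0.125) could not reach the threshold.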
